A study of Homo sapiens with 8 samples.

Results

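RNA from 8 cultures of the triple-negative breast cancer cell line MDA-MB-231 was used here, 2 libraries from each of 4 derived lines. The control line (control) carries a scrambled short hairpin RNA (shRNA). The other 3 lines have altered *DAXX*: knockdown by a *DAXX* shRNA (KD), overexpression of wild-type *DAXX* cDNA (WT OE), and overexpression of *DAXX* cDNA with both SUMO-interacting motifs disabled (DSM OE). All 4 lines were made by lentiviral transduction, selected with puromycin at 2 µg/mL and grown in complete DMEM, so they share vector delivery and drug. The cDNAs are driven by a cytomegalovirus promoter and the *DAXX* shRNA by the human *H1* promoter, so the control matches KD in being an shRNA line and does not match the cDNA lines. The sources used here do not say whether a line is a pool of cells or a clone, and differences between the lines that are unrelated to *DAXX* cannot be told apart from an effect of altering it. The 2 control libraries were set against the 6 altered libraries, with equal weight for each altered line, and all 8 libraries of the series entered. The question was which genes set the control line apart from every altered line, where *DAXX* itself had been moved in both directions. Of 36991 genes in the table, 10465 reached an FPKM (fragments per kilobase of transcript, scaled to library size) of 1 in 2 or more of the 8 libraries and were tested.

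DAXX is a nuclear chaperone of histone H3.3 that binds SUMO-modified proteins and acts as a coregulator of transcription. MDA-MB-231 cells have a mesenchymal character, with high vimentin and little of the estrogen receptor program of luminal breast cells. A gene that is high or low in control alone does not follow the order of *DAXX* levels, since KD lies on one side of control in *DAXX* and the overexpression lines on the other.

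FPKM sums ranged from 162318 to 166886, and depth relative to control replicate 1, estimated from the spacing of low values, was 0.920 to 1.169. *DAXX*, which checks the labels, had an FPKM of 25.3 and 37.4 in control against 8.60 and 7.30 (KD), 158 and 283 (WT OE) and 64.6 and 93.8 (DSM OE). FPKM counts endogenous and introduced transcripts together. The Pearson correlation of log2(FPKM + 1) was 0.9455 between the control libraries, 0.9364 to 0.9475 within altered lines, 0.9077 to 0.9248 between control and altered libraries and 0.893 to 0.9316 between altered lines. Of 15 markers of MDA-MB-231 cells, 13 reached an FPKM of 1, and their sum was 2193 to 2353 in control and 1096 to 2587 in the altered libraries. The low end was KD replicate 1, where *VIM*, the vimentin gene, was listed at 39.1 against 682 to 1328 in the other libraries. The sources used here do not describe how transcript values were joined into gene values, and the part of that step in this value, and in the marker sum it lowers, was not tested. Of 18 luminal markers, 12 reached an FPKM of 1 in a library. The list summed to 455.6 to 504.7 in control and 238.5 to 499.1 in the altered libraries. Its other members, *ESR1*, *FOXA1*, *GREB1*, *PDZK1*, *PGR* and *SCUBE2*, were under 1 in all 8 libraries. Markers reaching an FPKM of 1 numbered 4 of 16 for epithelial junctions, 2 of 10 for basal cells and 3 of 10 for fibroblasts. They numbered 3 of 10 for prostate, 2 of 10 for an embryonic kidney line, and 4 of 10 for leukocytes.

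On average over the 3 altered lines, 365 genes were higher (3.49% of those tested) and 352 were lower (3.36%) than in control, by limma on log2(FPKM + 1) with an adjusted p under 0.05. Without adjustment, 1357 and 1152 genes had p under 0.05. Of the 365 higher genes, 65 reached an FPKM of 1 in altered libraries alone, which favoured a higher value. Of the 352 lower genes, 34 reached it in control libraries alone, which fixed their direction. Over all 10465 tested genes, 552 entered through altered libraries alone and 45 through control alone. The shares of all genes called higher and lower include such genes. In 552 of the 717 called genes the control libraries did not overlap the 6 altered ones. The call itself favours such genes, and the share without overlap over all tested genes is not given here. An average can hide lines that differ. In 110 of the 717 the lines lay on both sides of control, and 379 also differed among the altered lines, where 1639 of all genes did so (15.7%, moderated F test). A stricter rule asked each altered line to differ from control in the same direction, taking the largest of the 3 two-sided p-values for each gene before adjustment. It called 25 genes, 7 higher (0.0669%) and 18 lower (0.172%) in the altered lines, with 519 at an unadjusted p under 0.05. Of the 18 lower genes, 11 reached an FPKM of 1 in control libraries alone, and 2 of the 7 higher ones in altered libraries alone, so that passing the filter already fixed their direction. By size alone, 28 genes were at least 1 higher (0.268%) and 32 at least 1 lower (0.306%) on the log2 scale in every altered line with no overlap. Leaving out 1 library lowered the 717 calls to 190 without control replicate 1, 173 without control replicate 2, 309 and 292 without KD replicates 1 and 2, 436 and 432 without those of WT OE, and 402 and 367 without those of DSM OE. The 25 genes became 29 and 15, 9 and 12, 11 and 12, and 10 and 5 in the same order, and a model with the replicate number as a block called 240 and 11.

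By its count of calls, the control line was not the one that stood furthest from the rest. KD differed from the mean of the other 3 lines in 1563 genes (14.9%), DSM OE in 1164 (11.1%) and WT OE in 385 (3.68%), beside the 717 of control. Apart from each of the other 3 lines were 124 genes for KD (1.18%), 2 for DSM OE (0.0191%) and 0 for WT OE (0.0%) by limma, the last with 274 at an unadjusted p under 0.05. These comparisons share libraries, and the difference between their counts was not tested.

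**Figure D1:**
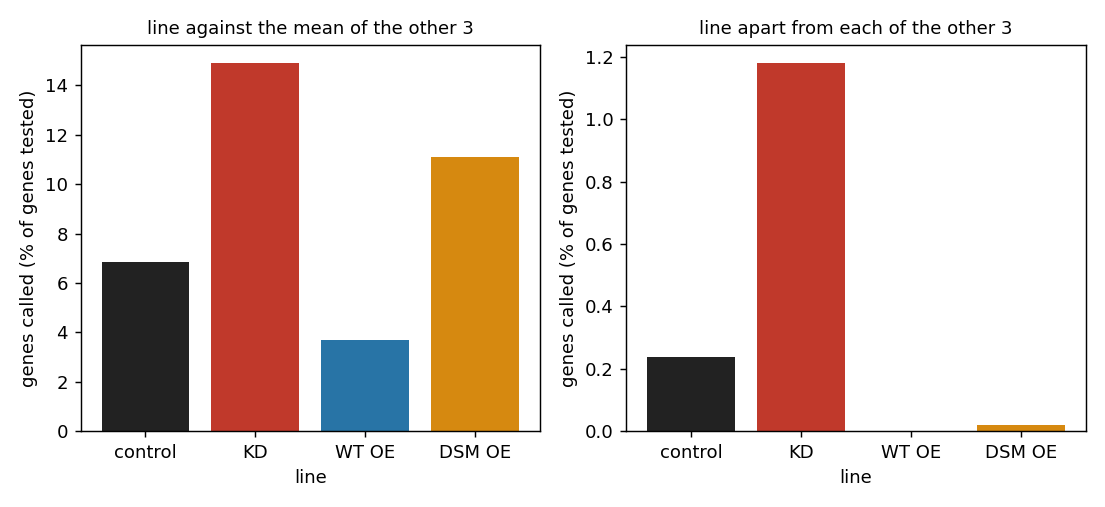
Percentage of the 10465 tested genes called by limma for each line. The left bars set a line against the mean of the other 3, with KD at 14.9% and WT OE at 3.68%, and the right bars ask for a difference from each of the other 3 lines, with KD at 1.18% and WT OE at 0.0%; the axes differ in scale.

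The genes that most sharply marked the control line were those of the trefoil factors. Trefoil factors are small secreted peptides of mucosal epithelia that take part in the repair of the mucosal surface, and *TFF1* and *TFF3* are known as estrogen-responsive genes of luminal breast cells. *TFF3* (ENSG00000160180) had an FPKM of 20.6 and 20.3 in control and was at 0 in all 6 altered libraries. *TFF2* (ENSG00000160181) had 8.29 and 9.40 in control and 0 in the other 6. *TFF1* (ENSG00000160182) stood at 7.03 and 7.16 and again at 0. No fold change can be given against libraries at 0. All 3 genes passed the every-line test (adjusted p = 0.000102, 0.000352 and 0.000352 from limma), and did so with each of the 8 libraries left out in turn and with the replicate block. In bulk RNA, fewer cells that express a gene and less RNA per cell cannot be told apart. The list of trefoil and mucosal secretion genes held 16 genes, of which 5 were tested. Of these, *TFF1*, *TFF2* and *TFF3* reached an FPKM of 1 in control alone and were tested only through it, which fixed their direction, so the 5 lower calls of the list are not set against the share of all genes. The other members were *SPDEF*, an ETS-family transcription factor gene of secretory epithelia, and *AGR2*, a protein disulfide isomerase gene for mucin folding. *SPDEF* had an FPKM of 55.8 and 64.4 in control against 18.4 and 17.2 (KD), 18.4 and 14.1 (WT OE) and 23.9 and 23.6 (DSM OE). Every altered library lay below control, with a mean difference of -1.61 on the log2 scale (standard error 0.12, adjusted p = 0.00267). *AGR2* was 2.77 in both control libraries and 0.452 to 1.39 in the altered ones. Of 14 colon markers, 10 were at 0 in all 8 libraries and 12 never reached 1. Their summed FPKM of 22.6 to 22.8 in control and 2.10 to 3.22 in the altered libraries differed through *TFF3*, which is one of them.

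*TFF3*, *TFF2* and *TFF1* lie side by side on chromosome 21 of GRCh38.p14, from 42311667 to 42366535. Their neighbours were looked at after these values were seen. *ABCG1*, a cholesterol and phospholipid exporter gene next to *TFF3*, had values of 0.545 and 0.774 in control and was listed at 0 in all 6 altered libraries. *TMPRSS3*, a membrane serine protease gene beyond *TFF1*, had 0.0537 and 0.0129 in control and 0 elsewhere. *SLC37A1*, a sugar phosphate exchanger gene further on, had 0.312 and 0.357 in control and at most 0.00124 in an altered library. From the start of *ABCG1* to the end of *SLC37A1* is 382 kb (42199689 to 42581426), with 10 genes in the table. The 6 that were above 0 in both control libraries were all at 0 or near it in the altered ones, and the other 4 were at 0 in all 8 libraries. Outside this stretch the values of control lay within the range of the altered libraries in the nearest gene on each side that reached 1. *ZBTB21*, a zinc finger gene on the *ABCG1* side, ranged from 1.17 to 2.02 in control and 0.895 to 2.85 in the altered libraries. *WDR4*, a tRNA methyltransferase subunit gene on the other side, had 1.71 and 1.60 in control and 1.20 to 2.07 in the altered libraries. *ABCG1*, *TMPRSS3* and *SLC37A1* were too low to be tested.

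**Figure D2:**
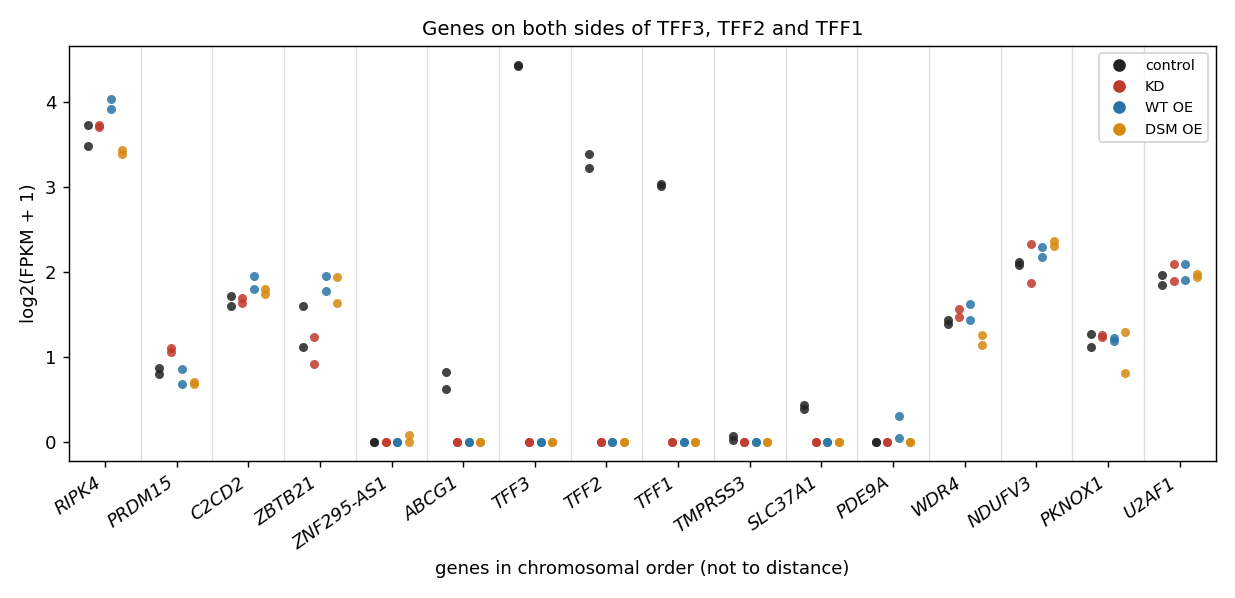
log2(FPKM + 1) of each library for genes on both sides of the trefoil factor genes, in chromosomal order; each point is 1 library and colours mark the 4 lines. From *ABCG1* to *SLC37A1* the altered points lie at 0.00124 FPKM or less and control points reach 20.6 and 20.3 in *TFF3*. From *RIPK4* to *ZBTB21* and from *WDR4* to *U2AF1* the control points overlap those of the altered lines.

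Other genes with appreciable values in control alone came from several functions. *COX7B2*, a cytochrome c oxidase subunit gene known mainly from testis, had 5.33 and 4.09 in control and 0 in every altered library (adjusted p = 0.00263 in the every-line test). *ALDOC*, the aldolase C gene of glycolysis, had 3.08 and 3.92 in control and at most 0.0342 in an altered library. *NUP210*, which encodes a nuclear pore membrane protein, had 3.18 and 3.07 in control and at most 0.0114 elsewhere. The means of the 3 altered lines lay within 0.04 of each other for *ALDOC* and 0.01 for *NUP210* on the log2 scale. *BCHE*, the butyrylcholinesterase gene, had 1.89 and 1.60 in control and 0.0265 in DSM OE replicate 1, and was at 0 in the other 5 altered libraries. *SPPL2A*, an intramembrane protease gene, had 2.55 and 2.68 in control and 0.0843 to 0.193 in the altered libraries. *SBK3* (1.61 and 2.17 in control, 0 elsewhere) and *PDK3*, a pyruvate dehydrogenase kinase gene (1.01 and 1.04, at most 0.0898 elsewhere), were the others described here. All 7 stayed under 1 in the altered libraries and entered the test only through control, so their direction was set by the filter. Their every-line adjusted p ran from 0.00192 for *NUP210* to 0.0391 for *PDK3*. *NUP210* kept that call with each of the 8 libraries left out, *COX7B2* with 7, *ALDOC* with 3, *BCHE* with 2, *SPPL2A* and *SBK3* with 1, and *PDK3* with 0.

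Over the whole table, filter set aside, 30 genes were at or above an FPKM of 0.1 in both control libraries while all 6 altered ones were at 0. The same count was 19 for KD, 7 for WT OE and 4 for DSM OE, each against the other 6 libraries. At or above an FPKM of 1 the counts were 5 for control, 1 for KD, 1 for WT OE and 0 for DSM OE. The 30 include *CREB3L3*, a transcription factor gene of liver lipid metabolism (0.702 and 0.623), *SFRP2*, a secreted Wnt modulator gene (0.371 and 0.272), *COLEC12*, a scavenger receptor gene (0.426 and 0.569) and *PRKCZ*, the atypical protein kinase C zeta gene (0.296 and 0.368). These 4 were picked after their values were seen. In the other direction, 7 genes were at 0 in both control libraries and at or above 0.1 in all 6 altered ones, against 12 for KD, 4 for WT OE and 3 for DSM OE. They were *ODAD2*, *HCN2*, *IL1A*, *INTS6L*, *IRX1*, *RNF125* and *TMEM47*. *TMEM47*, a junction-associated membrane protein gene, had 6.47 and 6.80 (KD), 4.34 and 4.44 (WT OE) and 0.422 and 0.453 (DSM OE). The homeobox gene *IRX1* had 1.31 and 1.43, 1.18 and 0.735, and 0.139 and 0.398 in the same order. In both, DSM OE stood nearest to control. Values this low rest on few reads, and how many is unknown from FPKM.

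Among genes that were lower in the altered lines but still measured there, *SPNS2* had the largest difference. SPNS2 exports sphingosine-1-phosphate from cells. Its gene stood at 23.2 and 24.5 in control against 0.985 and 0.768 (KD), 1.0 and 1.05 (WT OE) and 3.41 and 3.65 (DSM OE) (mean difference -3.27 on the log2 scale, standard error 0.09, every-line adjusted p = 0.00184). DSM OE lay between control and the other altered lines. In the list of sphingosine-1-phosphate metabolism, 14 genes were tested, with *SPNS2* lower and *PLPP3*, a lipid phosphate phosphatase gene, higher. Each is 7.14%, beside 3.36% lower and 3.49% higher of all genes. The mean difference of *PLPP3* was 0.57, and its call was lost with any library but DSM OE replicate 1 left out (0.48 to 0.66). *MYBBP1A*, which overlaps *SPNS2* in the annotation, had 8.29 and 13.1 in control and 5.72 to 15.6 in the altered libraries.

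*MISP*, which encodes an actin-binding protein that positions the mitotic spindle, had an FPKM of 11.1 and 13.7 in control against 0.295 and 0.442 (KD), 1.12 and 0.607 (WT OE) and 1.13 and 1.12 (DSM OE). No altered library came near control (mean difference -2.93, standard error 0.14, every-line adjusted p = 0.00653). *EEF1A2*, the elongation factor isoform normally found in muscle and neurons, had 9.31 and 12 in control and 0.563 to 1.98 in the altered libraries (-2.45, standard error 0.14, every-line adjusted p = 0.0178). *EEF1A1*, the common isoform, had 1483 and 1596 in control and 786 to 1718 in the altered libraries and did not pass (adjusted p = 0.577). *RHOD*, a small GTPase gene of the cytoskeleton, had 5.5 and 5.23 in control, 0.833 to 1.40 in KD and WT OE and 0 in both DSM OE libraries. *PODXL*, the gene of the anti-adhesive sialomucin podocalyxin, had 89.1 and 89.8 in control against 23.8 and 23.3 (KD), 48.6 and 50.3 (WT OE) and 35.1 and 33.5 (DSM OE). Its 2 libraries were close within each line while the altered lines differed from each other (F test, adjusted p = 0.00352). *CLU*, the clusterin gene for an extracellular chaperone, had 3.75 and 4.14 in control and 0.286 to 0.817 elsewhere. *CLU* thus entered the test only through control, and its direction was set by the filter. *OTULINL* had 4.02 and 4.25 in control and 0.710 to 1.49 elsewhere. With 1 library left out, *MISP* kept the every-line call in 5 of the 8 cases, *EEF1A2* in 3, and *RHOD*, *PODXL*, *CLU* and *OTULINL* in 0, while all 25 genes kept the call on the average in each of the 8.

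On the average alone, without the every-line test, 692 genes passed. Among those taken by the naming rule, *ADIRF*, a gene linked to adipogenesis, had 19.6 and 19.1 in control against 5.10 and 5.23 (KD), 3.09 and 4.03 (WT OE) and 2.19 and 0.875 (DSM OE) (mean difference -2.31, standard error 0.21, adjusted p = 0.00509). *SCARA3*, a scavenger receptor gene, had 5.07 and 5.33 in control and 0.0879 to 1.52 in the altered libraries (-1.93, adjusted p = 0.00419). Neither control library overlapped an altered one in these genes. *MAGEA3*, a cancer-testis antigen gene, had 20.6 and 23.3 in control and 0.594 to 5.37 in the altered libraries (-2.55, adjusted p = 0.0385). Reads of *MAGEA3* and its near-identical copy *MAGEA6* may be split between them, and *MAGEA6* had 5.46 and 0 in control, 8.17 in WT OE replicate 1, 6.13 in DSM OE replicate 1 and 0 in the others. The *MAGEA3* call was lost if a control, KD or WT OE library was left out (-2.88 to -2.21 over the 8 left out).

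**Figure D3:**
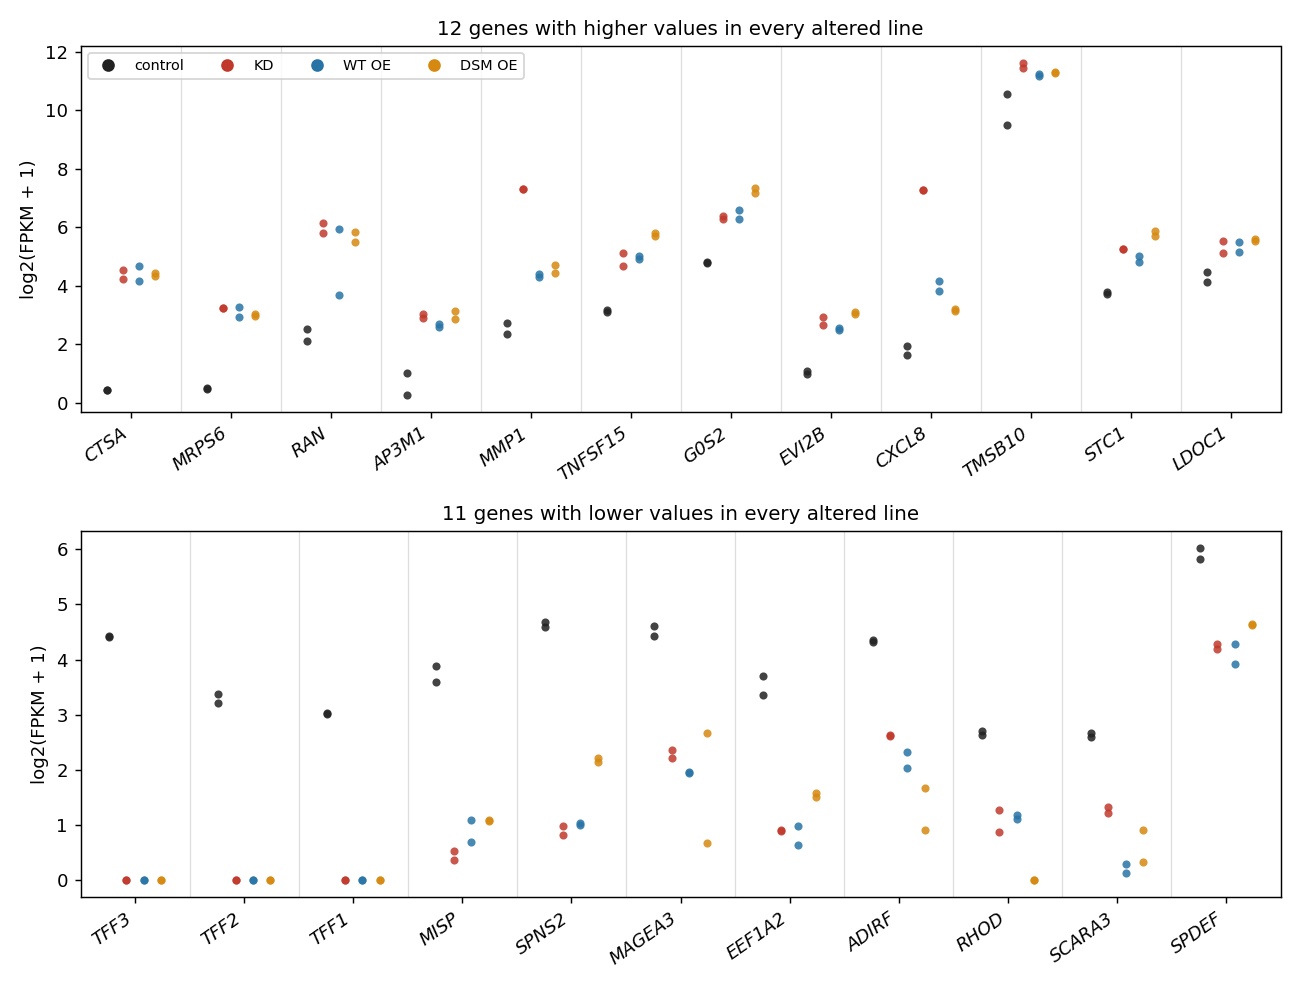
log2(FPKM + 1) of each library for 23 of the 24 genes taken by the naming rule, 12 with higher and 11 with lower values in every altered line; each point is 1 library and colours mark the 4 lines. The control points lie apart from the other 6 in each gene, *MMP1* and *CXCL8* are highest in KD, and the libraries of 1 line differ most in *RAN* (WT OE, 60.6 and 11.8 FPKM) and *MAGEA3* (DSM OE, 5.37 and 0.594).

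In the direction of higher values, *CTSA* and *MRPS6* were almost unlisted in control and alike in all altered lines. Both stayed under 1 in control and entered the test only through altered libraries, so their direction was set by the filter. *CTSA* (ENSG00000064601), the gene of the lysosomal carboxypeptidase cathepsin A that also shields other lysosomal enzymes, had an FPKM of 0.351 and 0.360 in control against 22.1 and 17.6 (KD), 24.7 and 16.9 (WT OE) and 20.7 and 19.4 (DSM OE). Its mean difference was 3.96 on the log2 scale (standard error 0.16, every-line adjusted p = 0.00239), and the means of the altered lines lay within 0.05 of each other. *PLTP*, which overlaps *CTSA*, had 1.33 and 1.52 in control and 0.685 to 2.54 in the altered libraries. In the list of 15 lysosomal protease genes tested, *CTSS* was also higher and *CTSD* lower, and the median difference was 0.12. Of the 15, 3 reached an FPKM of 1 in altered libraries alone, *CTSA* and *CTSS* among them. Passing the filter that way favoured a higher value, so the higher calls and the median are not set against all genes. The *CTSS* call was lost without either control library (1.5 to 1.67), and that of *CTSD* without either control or KD library (-0.97 to -0.81). *MRPS6* (ENSG00000243927), a protein gene of the small subunit of the mitochondrial ribosome, had 0.436 and 0.399 in control against 8.53 and 8.54 (KD), 6.71 and 8.71 (WT OE) and 7.22 and 6.83 (DSM OE) (mean difference 2.62, standard error 0.11, every-line adjusted p = 0.00263). *SLC5A3*, which overlaps *MRPS6*, had 2.72 and 1.93 in control and 1.99 to 3.91 in the altered libraries. Of the 29 tested genes of that ribosomal subunit, *MRPS6* was higher and *MRPS26* lower, with a median of 0.00. Each call is 3.45% of the list, near the share of all genes (3.49% higher and 3.36% lower). Of the 29, 2 reached an FPKM of 1 in altered libraries alone, *MRPS6* among them. *MRPS26* was lower by 0.47 on average, with KD (43.3 and 42.5) above control (32.3 and 34.4), and its call was lost if a control, KD or DSM OE library was left out (-0.52 to -0.43). *CTSA* and *MRPS6* each kept the every-line call with 7 of the 8 libraries left out.

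*AP3M1*, *RAN* and *TMSB10* were also higher in the altered lines, with less agreement within lines. *AP3M1*, a subunit gene of the AP-3 adaptor that sorts proteins to lysosomes, had 1.01 and 0.218 in control and 5.02 to 7.85 in the altered libraries (mean difference 2.23, standard error 0.20, adjusted p = 0.00509). *VCL*, which overlaps *AP3M1* and encodes vinculin, ranged from 12.1 to 34.1 in control and 7.10 to 36.7 in the altered libraries. *RAN*, the gene of the GTPase that drives nuclear transport, had 3.29 and 4.79 in control against 55.5 and 70.7 (KD), 60.6 and 11.8 (WT OE) and 55.8 and 43.8 (DSM OE) (3.17, standard error 0.57, adjusted p = 0.0328). The part that joining transcript values into gene values had in the *RAN* values was not tested. The *RAN* call was lost if a control, KD or DSM OE library was left out (2.79 to 3.55). Among 24 nuclear transport genes, *RAN* and *XPOT*, the tRNA export receptor gene, were higher and none was lower by limma (2 at an unadjusted p under 0.05), with a median of 0.01. The share higher was 8.33%, beside 3.49% of all genes. The *XPOT* call was lost without either control or KD library, WT OE replicate 1 or DSM OE replicate 2 (0.55 to 0.69). *TMSB10*, the thymosin beta 10 gene for an actin-sequestering peptide, had 1519 and 722 in control and 2341 to 3188 in the altered libraries (1.32, adjusted p = 0.0439). Its control libraries differed about as much as control and altered lines, and the call was lost with any library but control replicate 1 left out (0.79 to 1.86).

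The other genes taken by the naming rule for higher values were *TNFSF15*, *STC1*, *G0S2*, *EVI2B*, *LDOC1*, *MMP1* and *CXCL8*. *TNFSF15*, which encodes the TNF-family ligand TL1A, had 7.70 and 8.08 in control against 34.0 and 24.5 (KD), 29.6 and 31.2 (WT OE) and 55.6 and 50.8 (DSM OE) (mean difference 2.06, standard error 0.13, every-line adjusted p = 0.0237). *STC1*, the gene of the glycoprotein hormone stanniocalcin 1, had 12.4 and 12.7 in control against 37.7 and 37.6 (KD), 27.5 and 31.7 (WT OE) and 57.6 and 51.5 (DSM OE) (1.57, standard error 0.09, every-line adjusted p = 0.0237). *G0S2*, which encodes an inhibitor of adipose triglyceride lipase, had 26.7 and 27.2 in control against 83.4 and 77.8 (KD), 95.1 and 77.0 (WT OE) and 145 and 162 (DSM OE) (1.88, standard error 0.10, every-line adjusted p = 0.0168). In all 3 genes DSM OE was highest, and the altered lines differed (F test, adjusted p = 0.0307, 0.0138 and 0.0141). *EVI2B*, a transmembrane protein gene that lies inside *NF1*, had 0.973 and 1.15 in control and 4.6 to 7.68 in the altered libraries (1.76, every-line adjusted p = 0.0179). *NF1* itself ranged from 0.0144 to 0.401 in control and 0.0169 to 0.679 in the altered libraries. *LDOC1*, a leucine zipper protein gene, had 16.7 and 21.2 in control and 34.2 to 47.2 in the altered libraries (1.10, adjusted p = 0.0213, lost without either control or DSM OE library, 0.94 to 1.27). Of the 7 genes higher in every line, *MMP1*, *TNFSF15* and *G0S2* kept that call with 1 of the 8 libraries left out, and *EVI2B* and *STC1* with 0.

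*MMP1* and *CXCL8* combined a difference in every altered line with a much larger one in KD. *MMP1*, the interstitial collagenase gene, had 5.59 and 4.11 in control against 160 and 159 (KD), 18.8 and 20.4 (WT OE) and 25 and 20.8 (DSM OE). It exceeded control by 4.79 on the log2 scale in KD, by 1.83 in WT OE and by 2.03 in DSM OE (every-line adjusted p = 0.0178). *CXCL8*, which encodes the neutrophil chemokine interleukin 8, had 2.81 and 2.1 in control against 156 and 154 (KD), 13.2 and 17.1 (WT OE) and 7.79 and 8.26 (DSM OE). The differences were 5.5, 2.22 and 1.39, and the every-line adjusted p of 0.0511 missed the threshold. Both genes differed among the altered lines (F test, adjusted p = 0.000843 and 0.000451).

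**Figure D4:**
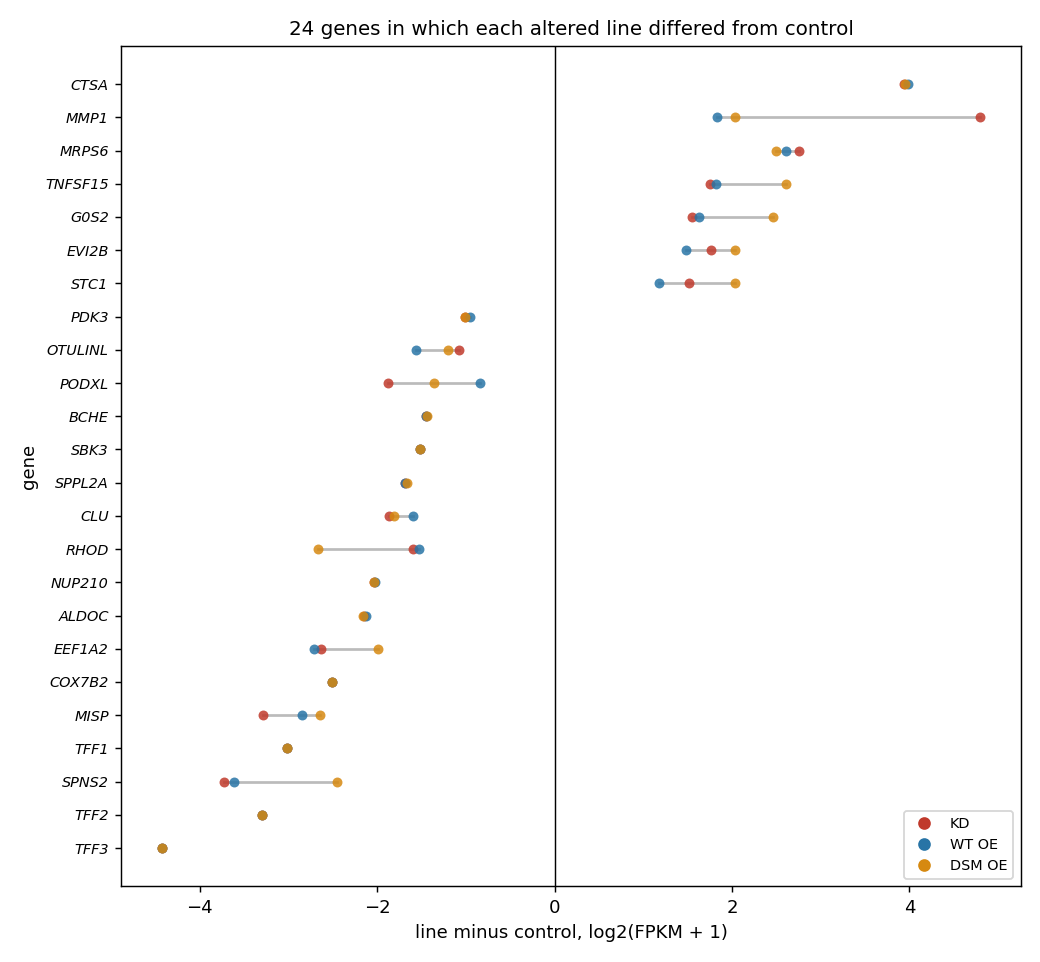
Difference of each altered line from control on the log2(FPKM + 1) scale for 24 of the 25 genes that passed the every-line test; colours mark the 3 lines and a grey bar spans them. In *CTSA* and *NUP210* the 3 points coincide, while *MMP1* runs from 1.83 in WT OE to 4.79 in KD. For the genes listed at 0 in the altered lines the position depends on the pseudocount.

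The promoters of 4 of these genes are shown because they carry the largest differences in each direction among the genes found in the RefSeq promoter table (*CTSA* and *MISP*), or a searched motif (*TNFSF15* and *CXCL8*). Each is the 250 bases before the start of the gene in GRCh38.p14, read 5′ to 3′ on the gene's strand, with motif matches in capitals.
CTSA (chr20:45891085-45891334, + strand): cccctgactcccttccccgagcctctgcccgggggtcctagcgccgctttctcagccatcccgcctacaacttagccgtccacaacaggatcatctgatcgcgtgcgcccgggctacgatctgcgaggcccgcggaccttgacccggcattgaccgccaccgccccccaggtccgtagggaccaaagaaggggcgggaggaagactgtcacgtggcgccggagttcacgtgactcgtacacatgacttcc
MISP (chr19:750862-751111, + strand): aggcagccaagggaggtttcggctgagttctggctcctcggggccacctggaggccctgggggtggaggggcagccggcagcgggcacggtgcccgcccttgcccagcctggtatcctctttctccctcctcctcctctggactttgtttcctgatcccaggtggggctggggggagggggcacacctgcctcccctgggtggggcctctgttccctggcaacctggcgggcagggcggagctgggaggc
TNFSF15 (chr9:114792531-114792780, - strand): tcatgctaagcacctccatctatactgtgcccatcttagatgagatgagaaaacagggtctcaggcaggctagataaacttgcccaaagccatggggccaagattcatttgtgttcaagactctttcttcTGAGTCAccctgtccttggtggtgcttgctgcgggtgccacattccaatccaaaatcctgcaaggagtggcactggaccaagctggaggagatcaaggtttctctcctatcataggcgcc
CXCL8 (chr4:73740319-73740568, + strand): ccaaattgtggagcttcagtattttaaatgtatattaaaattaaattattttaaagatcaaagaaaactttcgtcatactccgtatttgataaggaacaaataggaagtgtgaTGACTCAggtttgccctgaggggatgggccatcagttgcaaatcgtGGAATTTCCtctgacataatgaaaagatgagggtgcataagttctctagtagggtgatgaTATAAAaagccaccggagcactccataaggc

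Searched on both strands were TATAAA, the core of the TATA box; TGACTCA and its reverse complement TGAGTCA, the element of AP-1; and GGAATTTCC, an element of NF-kB. None of the motifs overlapped another. *CXCL8* held TATAAA at position -31 from the start, GGAATTTCC at -91 and TGACTCA at -137. *TNFSF15* held TGAGTCA at -120. In windows of the same length over 27305 promoters, TATAAA was found in 11.1%, an AP-1 element in 4.16% and the NF-kB element in 0.428%. Of the 12 named genes with higher values, 9 had a promoter in the table, and 1 held the TATA box, 2 AP-1 and 1 NF-kB. Of the 12 with lower values 5 had one, and 0 held any of them. *BCHE*, a lower gene that is not among those 12, held TTTATA, the reverse complement of TATAAA, at -101. A match of letters does not show that a factor binds there, and no match says only that these letters were not in the window.

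Several genes of lipid synthesis were lower on average in the altered lines, with WT OE nearest to control by the median of the cholesterol synthesis genes. Such genes are activated by the SREBP transcription factors when cell sterols are low, and they are the subject of the study. Of 21 cholesterol synthesis genes tested, 9 were lower (42.9%, beside 3.36% of all genes) and 0 were higher by limma (0 also at an unadjusted p under 0.05). The median difference was -0.84 for KD, -0.04 for WT OE and -0.58 for DSM OE, beside 0.03, 0.02 and 0.02 over all genes. *CYP51A1*, the lanosterol demethylase gene, had 45.6 and 41.8 in control against 12.1 and 16.6 (KD), 29.7 and 38.0 (WT OE) and 23.8 and 25.2 (DSM OE). Its mean difference of -0.91 (standard error 0.15, adjusted p = 0.0277) was not called without either control or DSM OE library (-0.98 to -0.84). *IDI1*, the isopentenyl diphosphate isomerase gene, had 27.0 and 22.3 in control, about as high in WT OE (19.5 and 25), and lower in KD (10.2 and 10.3) and DSM OE (12.5 and 11.7), a call lost if a control, KD or DSM OE library was left out (-0.90 to -0.63). None of the 21 passed the every-line test. The 9 calls became 0 without control replicate 1, control replicate 2 or the whole KD line and with the replicate block, and 1 without KD replicate 2 or the DSM OE line. They were 3 without KD replicate 1, DSM OE replicate 1 or either WT OE library, 4 without DSM OE replicate 2, and 10 without the WT OE line.

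In fatty acid synthesis, 13 genes were tested, 5 were lower and 1 higher, with a median of -0.42. These are 38.5% and 7.69%, beside 3.36% and 3.49% of all genes. *SLC25A1*, the mitochondrial citrate carrier gene, had 88.8 and 86.8 in control against 48.2 and 42.4 (KD), 63.7 and 59.6 (WT OE) and 54.7 and 57.3 (DSM OE). No altered library reached control (mean difference -0.70, standard error 0.08, adjusted p = 0.0106), and the call was lost without either control library (-0.73 to -0.67). *FADS1*, the delta-5 desaturase gene, fell by 0.63 and *ACACA*, the acetyl-CoA carboxylase gene, by 0.56. *ME1*, the malic enzyme gene that supplies NADPH, was the 1 higher member. The 5 lower calls became 0 without either control library, 3 and 2 without KD replicates 1 and 2, and 3 and 2 without those of DSM OE. *FADS1* lost its call if a control, KD or DSM OE library was left out (-0.68 to -0.58). *ME1* (0.56 to 0.82) kept it only without WT OE replicate 1. Of 13 genes of SREBP processing and sterol uptake, *SCAP* and *MBTPS1* were higher and 0 were lower by limma (1 at an unadjusted p under 0.05), with a median of 0.05. That is 15.4% higher, beside 3.49% of all genes. *SCAP* (0.36 to 0.58) lost its call with any 1 library left out, and *MBTPS1* (0.55 to 0.86) without control replicate 1 or any KD or DSM OE library. In lipid droplet turnover, 11 genes were tested, *G0S2* was higher and *PLIN2*, a droplet coat protein gene, lower by 0.62 on average (lost if a control, KD or WT OE library was left out, -0.66 to -0.57). Each is 9.09% of the droplet genes tested, beside 3.49% higher and 3.36% lower of all genes.

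Several genes of secreted inflammatory factors were higher on average, with the largest differences in KD. Of 22 NF-kB targets and cytokines tested, 13 were higher and 0 were lower by limma (0 at an unadjusted p under 0.05). Of the 22, 9 reached an FPKM of 1 in altered libraries alone, 7 of them among the 13, and passing the filter that way favoured a higher value. Among the other 13 tested genes, 6 were called. The calls of the whole list are therefore not set against the share of all genes (3.49% higher). The median difference over all 22, which carries the same limit, was 2.31 for KD, 0.17 for WT OE and 0.16 for DSM OE. *CXCL1*, a neutrophil chemokine gene, had 1.07 and 1.74 in control against 191 and 199 (KD), 9.04 and 8.94 (WT OE) and 2.96 and 2.27 (DSM OE). *IL1B*, the interleukin-1 beta gene, had 0.395 and 0.276 in control against 75.9 and 78.3 (KD), 1.06 and 1.14 (WT OE) and 5.29 and 4.82 (DSM OE). Control was lowest in both, with WT OE second-highest in *CXCL1* and DSM OE in *IL1B*. *IL1A*, the gene of the other interleukin-1 ligand, was listed at 0 in both control libraries, 5.20 and 5.61 (KD), 0.259 and 0.304 (WT OE) and 1.89 and 1.37 (DSM OE). *PTGS2*, the cyclooxygenase-2 gene, had 0.136 and 0.703 in control and 1.31 to 3.45 in the altered libraries. None of the 22 passed the every-line test. With the KD line left out 5 members were called. With 1 library left out the list gave 7 to 12 calls, fewest without control replicate 1. Of 15 TNF superfamily genes tested, *TNFSF15* was higher and *NGFR*, a neurotrophin receptor gene, lower, with a median of 0.00. Each is 6.67%, beside 3.49% higher and 3.36% lower of all genes. *NGFR* had 16.4 and 16.3 in control and 0.930 and 0.957 in KD, but 12.6 to 18.7 in both overexpression lines. Its call on the average was lost without either control library (-1.16 to -1.04) and without the KD line.

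**Figure D5:**
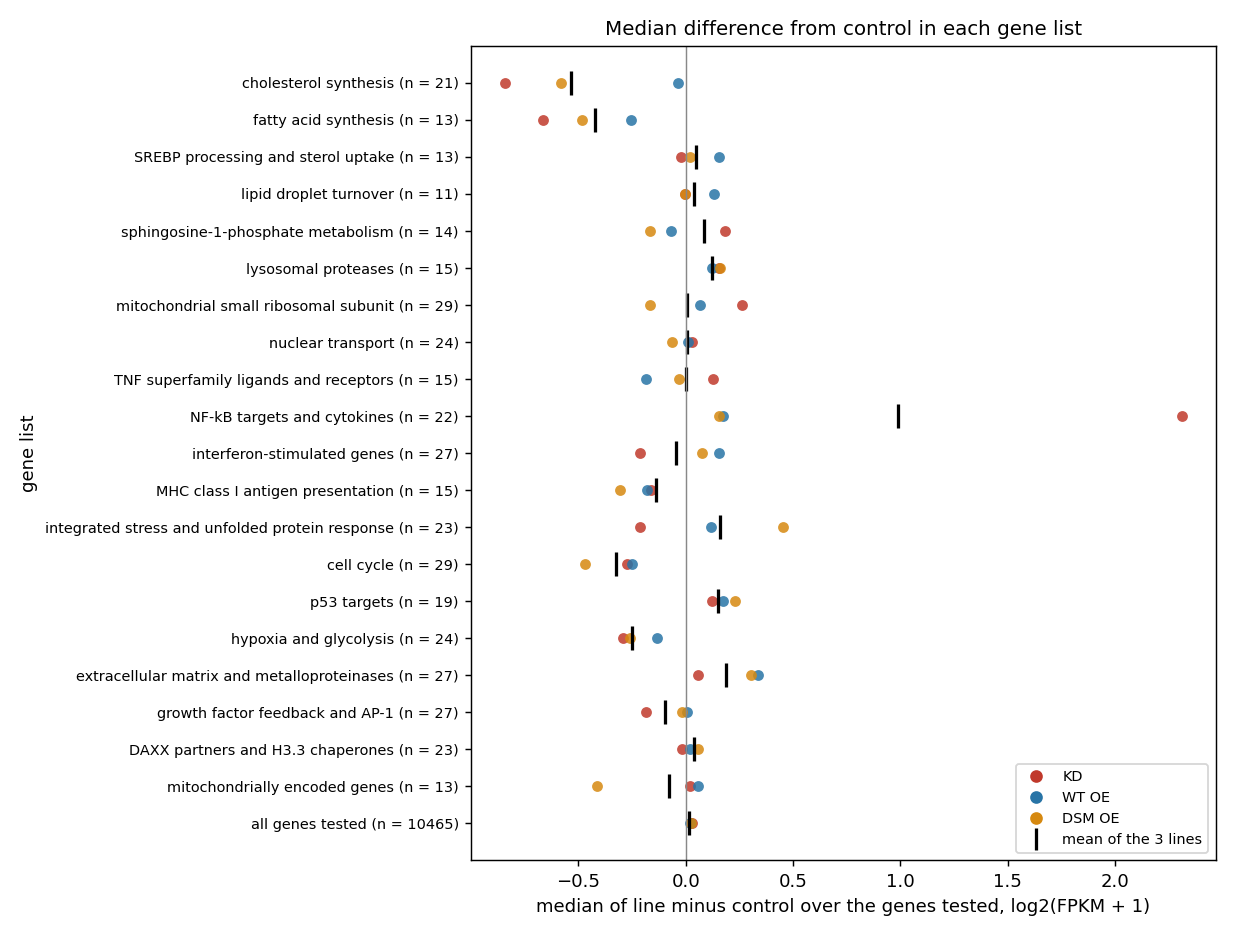
Median difference from control over the tested genes of 20 gene lists and over all genes, on the log2(FPKM + 1) scale. Coloured points are the 3 altered lines. The black tick is the median, over the genes, of the difference averaged over the 3 lines. NF-kB targets stand at 2.31 in KD against 0.17 and 0.16 in the overexpression lines, and cholesterol synthesis at -0.84 in KD and -0.04 in WT OE. The trefoil list is left out, since most of its tested genes are listed at 0 in the altered lines.

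Matrix and protease genes moved in both directions. Of 27 tested, 7 were higher (among them *LAMB3*, *LOX*, *MMP1*, *MMP14* and *PLAUR*) and 4 lower (*COL3A1*, *COL6A1*, *TIMP3* and *PLAT*), with a median of 0.19. These are 25.9% and 14.8%, beside 3.49% and 3.36% of all genes. *LAMB3*, a laminin-332 chain gene, had 81.5 and 91.5 in control against 129 and 131 (KD), 165 and 179 (WT OE) and 274 and 281 (DSM OE) (mean difference 1.08, standard error 0.08, adjusted p = 0.00251). Control was lowest and DSM OE highest. *COL3A1*, a fibrillar collagen gene and a fibroblast marker, had 2.54 and 2.01 in control and 2.06 and 2.42 in KD, but at most 0.0180 in the overexpression lines. The 7 higher calls became 3 and 4 without control replicates 1 and 2, and the 4 lower calls 2 without either. Of 27 genes of growth factor feedback and AP-1, 2 were higher and 2 lower (7.41% each, beside 3.49% and 3.36% of all genes, median -0.09). *DUSP5*, a phosphatase gene for ERK, was higher by 0.61, with 106 and 119 in DSM OE and 36.5 to 49.6 elsewhere. *TGFA* and *AREG*, genes of EGF receptor ligands, were lower by 0.96 and 0.55. Without either control library the *DUSP5*, *TGFA* and *AREG* calls were lost (0.58 to 0.65, -1.03 to -0.89 and -0.58 to -0.52). The *TGFA* call was also lost without DSM OE replicate 2, and that of *AREG* with any library but DSM OE replicate 1 left out.

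In the integrated stress and unfolded protein response, 23 genes were tested, 5 were higher and 2 lower, with a median of 0.16. These are 21.7% and 8.7%, beside 3.49% and 3.36% of all genes. *PSAT1*, a serine synthesis gene, had 40.9 and 36.7 in control against 45.0 and 44.4 (KD), 92.5 and 91.2 (WT OE) and 149 and 139 (DSM OE) (mean difference 1.10, standard error 0.07, adjusted p = 0.00218). *PHGDH*, which encodes the first enzyme of that pathway, had 3.48 and 3.06 in control against 2.06 and 1.88 (KD), 12 and 11 (WT OE) and 18.6 and 16.0 (DSM OE). KD lay near or below control in both genes, so the average is that of the overexpression lines. The *PHGDH* call was lost without control replicate 2 (0.97 to 1.11). *GDF15*, the gene of a stress-induced cytokine, had 14.3 and 16.7 in control against 1.65 and 1.20 (KD), 5.56 and 3.9 (WT OE) and 17.1 and 19.6 (DSM OE). Its mean difference of -1.36 was not called without either control library (-1.47 to -1.25) or without the KD line. The 5 higher calls became 1 to 3 with 1 library left out, and the 2 lower ones 0 without either control library and 1 without any other library but DSM OE replicate 2. In p53 targets, 19 genes were tested, *SESN2* was higher and *GDF15* and *PHLDA3* were lower (median 0.15). The shares were 5.26% and 10.5%, beside 3.49% and 3.36% of all genes. *SESN2* (0.61 to 1.06) kept its call only without WT OE replicate 2, and *PHLDA3* (-0.41 to -0.38) lost it with any 1 library left out.

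Of 29 cell cycle genes tested, 5 were lower and 0 higher by limma (0 at an unadjusted p under 0.05), with a median of -0.32 on the average and -0.27, -0.25 and -0.47 in KD, WT OE and DSM OE. The 5 are 17.2%, beside 3.36% of all genes. *PCNA*, the sliding clamp gene of DNA replication, had 106 and 104 in control against 110 and 112 (KD), 45.4 and 45.3 (WT OE) and 32.4 and 27.3 (DSM OE) (-0.96, standard error 0.08, adjusted p = 0.00402). It was lower in the overexpression lines, and KD was not below control. The other 4 were *CDC6*, *MCM3*, *TOP2A* and *PLK1*, and the 5 calls became 1 to 3 with 1 library left out, 1 without KD replicate 2 and without control replicate 2. *MCM3* kept its call only without control replicate 1 (-0.92 to -0.56), and *PLK1* only without KD replicate 1 (-0.73 to -0.58). In hypoxia and glycolysis, 24 genes were tested and 3 were lower, with a median of -0.25. The 3 were *ALDOC*, already described, *SLC2A1*, the glucose transporter 1 gene, and *HK2*, the hexokinase 2 gene. *ALDOC* entered the test only through control, which fixed its direction, so the 3 calls are not set against the share of all genes. Of the 23 that reached an FPKM of 1 in both control and altered libraries, 2 were called. *SLC2A1* and *HK2* fell by 0.50 and 0.47. Both calls were lost with any library but WT OE replicate 1 left out (-0.55 to -0.45 and -0.50 to -0.43).

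The other lists held few called genes, beside 3.49% higher and 3.36% lower over all genes. The share lower was 3.7% in the interferon-stimulated genes and 13.3% in MHC class I presentation. It was 4.35% in the DAXX partners and 15.4% in the mitochondrially encoded genes. Of 27 interferon-stimulated genes, *BST2*, the tetherin gene, was lower and 0 were higher by limma (2 at an unadjusted p under 0.05), with a median of -0.04. *BST2* had 70.5 and 71.6 in control against 59.1 and 63.0 (KD), 38.8 and 41.9 (WT OE) and 20.3 and 14.9 (DSM OE), a call lost without either control library (-1.07 to -0.93). In MHC class I presentation, *PSMB8* and *PSMB9*, immunoproteasome genes, were lower among 15 tested (median -0.14), with calls lost if a control, KD or WT OE library was left out (-0.37 to -0.33 and -0.72 to -0.62), and for *PSMB8* also without either DSM OE library. Among 23 genes of DAXX partners and H3.3 chaperones, *ASF1B*, a histone chaperone gene, was lower by 0.45 (median of the list 0.04, call lost if a control, KD or DSM OE library was left out, -0.47 to -0.43). Of 13 mitochondrially encoded genes, *MT-ND1* and *MT-ND4* were lower (median -0.08). *MT-ND1* (-0.55 to -0.41) lost its call with any library but DSM OE replicate 1 left out, and *MT-ND4* (-0.36 to -0.33) with any 1 library. *DAXX* did not pass the test on the average (0.74, standard error 0.28, adjusted p = 0.182), with lines on both sides of control.

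Some markers of cell state were called besides the trefoil genes. Over all genes tested, 3.49% were higher and 3.36% lower. Of 13 MDA-MB-231 markers tested, *ZEB1* and *SNAI2*, transcription factor genes of mesenchymal cells, were higher and *S100A4* lower. *S100A4* had 408 and 399 in control against 117 and 133 (KD), 270 and 311 (WT OE) and 250 and 199 (DSM OE) (mean difference -1.0, adjusted p = 0.0112). *SNAI2* had 5.89 and 5.68 in control and 6.65 to 13.9 elsewhere. Both calls were lost without either control library (-1.06 to -0.95 and 0.60 to 0.65) and without the KD line, and *ZEB1* (0.39 to 0.58) with any 1 library left out. Of 4 epithelial junction genes tested, *CLDN7* was higher and *CLDN4* and *OCLN* lower. *CLDN4*, a claudin gene, had 31.8 and 34.0 in control and 18.4 to 21.0 in all 6 altered libraries, a difference of -0.71 (adjusted p = 0.0101) that was lost without either control library (-0.76 to -0.66). *CLDN7* (1.05 to 1.79) kept its call only without control replicate 2 or KD replicate 2, and *OCLN* (-0.53 to -0.34) in no case. Of 12 luminal markers tested, *TFF1*, *TFF3*, *AGR2* and *SPDEF* were lower and *XBP1* and *CA12* higher. *TFF1* and *TFF3* entered the test only through control, and 1 of the higher genes only through altered libraries. Of the 9 that reached an FPKM of 1 in both control and altered libraries, 3 were called. The basal marker *SFN* was lower by 0.54 (lost if a control, KD or DSM OE library was left out, -0.59 to -0.49), the fibroblast marker *COL3A1* was lower and the leukocyte marker *CD14* was higher by 0.68 (lost if a control, KD or WT OE library was left out, 0.59 to 0.77). Of the 3 prostate and 2 embryonic kidney markers tested, 0 were called in either direction by limma, with 2 and 1 at an unadjusted p under 0.05. The part of such markers in the other results was not tested.

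Called genes lay next to each other at some places. Among 10297 tested genes with a RefSeq position, 53 runs of neighbouring tested genes were called in the same direction, with 116 genes in them, and 7 runs had 3 or more. Such neighbours can lie far apart, and the run of *TGIF2LX*, *NAP1L3* and *DIAPH2* spanned 7683 kb. How many runs the share of called genes alone would give was not worked out. The trefoil genes, whose direction was set by the filter, were one of the 7 runs. The chemokine genes *CXCL8*, *CXCL1*, *CXCL3* and *CXCL2* on chromosome 4, from 73740569 to 74099195, were all higher. Their rise was not shared alike: *CXCL2* had 0.0998 and 0.0989 in control, 5.83 and 7.08 in KD and at most 0.375 in the overexpression lines. *CXCL2* thus entered the test only through KD, and passing the filter that way favoured a higher value. The S100 genes *S100A5*, *S100A4* and *S100A3*, for calcium-binding proteins, were all lower on chromosome 1 within 12.1 kb. A run on chromosome 20 held the cystatin genes *CST4*, *CST1*, *CST2* and *CST7* and *APMAP*. *APMAP*, an adipocyte membrane protein gene, had 53.7 and 58.4 in control and 58.5 and 57.2 in KD, but the overexpression lines had 26.5 and 24.9 (WT OE) and 23.1 and 21.4 (DSM OE). *CST7*, the cystatin F gene, was lower in all 3 lines, with 2.10 and 2.19 in control and at most 0.412 in the altered libraries. It entered the test only through control, so its direction was set by the filter. By chromosome, the share of tested genes that were called ran from 3.31% on chromosome 13 to 17.4% on chromosome 18. The next highest shares were 14.6% on chromosome 20 and 13.7% on chromosome 21. Over all genes tested, 3.49% were higher and 3.36% lower. On chromosome 18, 22 of 149 were higher and 4 lower, on chromosome 20, 9 of 308 were higher and 36 lower, and on chromosome 21, 9 of 102 were higher and 5 lower. Genes on a chromosome are not independent, and these shares were not tested.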

How the data were processed

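RNA of 8 MDA-MB-231 cultures in 4 lines was analysed from the FPKM values deposited by the authors. Per the paper's methods, poly A libraries were aligned to GRCh38 with HISAT2, assembled with StringTie and expressed as FPKM, and differential expression was tested with limma; the submitters' notes also name hg19. The sources used here do not say how transcript values were joined into gene values. Read counts were not analysed here, so the absolute depth is unknown. The series design speaks of duplicates and the treatment notes of triplicates, and p-values measure the spread between the 2 libraries of a line. DSM OE titles include the letters WT as well, and the genotype label was used. Groups come from the labels alone.

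Genes with FPKM of at least 1 in at least 2 libraries were tested as log2(FPKM + 1) with limma 3.58.1 in R 4.3.3, with a mean for each of the 4 lines, a variance trend, 4 residual degrees of freedom (the prior added 1.863) and two-sided p-values adjusted by the Benjamini-Hochberg method, with a threshold of 0.05. The fit was tested on simulated data in which known changes had been placed. The members, the 21 pathway lists and 9 marker lists described in the report, and the naming rule were chosen with earlier results of these data known. The rule took the 12 genes each way with the largest of the smallest line differences, among genes called on the average, of 1 direction in all lines, without overlap and with a mean FPKM of at least 5 on the higher side; *DAXX*; and from each list up to 3 called members with the largest change, or the 2 with the highest FPKM where none was called. A few genes that the rule or the lists take in are counted but not reported here. Other genes named were chosen after their values were seen. Gene positions, symbols and promoters come from RefSeq tables of GRCh38.p14. Of the 24 genes first named by the rule, 14 were in the promoter table. Alternatives were a pseudocount of 0.1, no filter, a filter at a mean FPKM of 5, scaling by the median, quantile normalization, no variance trend, a robust fit, a replicate block, a fit of 2 groups, each altered line left out, and each library left out.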

Additional observations from a re-analysis of the deposited data

Results flagged for a closer look

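Of the 71 named genes called on the average of the altered lines, 41 also differed among the altered lines themselves (moderated F test of limma across all genes, which 15.7% of all genes passed), so that their average stands for unequal differences. The value given with each is the adjusted p of that test, and the line named is the one whose mean lay furthest from control. For these genes, no value given here sets that line against each of the others.

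KD lay furthest in 17. These were *IL1B* (9.15e-05), *CXCL1* (0.000215), *CXCL8* (0.000451) and *MMP1* (0.000843), with differences from control of 5.87, 6.36, 5.5 and 4.79 in KD and at most 2.22 in an overexpression line; *NGFR* (0.000639), *AREG* (0.00174) and *GDF15* (0.00174) of growth factors and their receptors; *SPNS2* (0.00368), *CTSS* (0.00807), *CD14* (0.0149) and *PSMB8* (0.0272); *SNAI2* (0.0098), *S100A4* (0.0114) and *OCLN* (0.0144) of the cell state markers; *PHLDA3* (0.0124); and *IDI1* (0.0189) and *CYP51A1* (0.0236) of cholesterol synthesis.

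DSM OE lay furthest in 21. *PHGDH* (0.000658), *PSAT1* (0.00116), *SESN2* (0.00648) and *XPOT* (0.0153) were higher in both overexpression lines, with the larger difference in DSM OE. *PCNA* (0.0011) and *ASF1B* (0.00428) concern DNA replication and histone supply. *DUSP5* (0.00121), *LAMB3* (0.00466), *ZEB1* (0.0112), *STC1* (0.0138), *G0S2* (0.0141), *ME1* (0.0232) and *TNFSF15* (0.0307) were highest there. *BST2* (0.00467), *RHOD* (0.012), *SLC2A1* (0.0166), *PLIN2* (0.0204), *SFN* (0.0317), *ADIRF* (0.0423) and the mitochondrially encoded *MT-ND4* (0.00235) and *MT-ND1* (0.0197) were lowest there.

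WT OE lay furthest in 3, *MRPS26* (0.00174), *COL3A1* (0.00191) and *SCARA3* (0.0427). In *COL3A1* the differences of WT OE and DSM OE were both -1.69, and that of KD was -0.01.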

How the results depend on the processing

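The counts depended on the number of libraries and on the filter more than on scaling. The median of all genes moved by less than 0.1 on the log2 scale under each setting, and median scaling, quantile normalization, no variance trend and a robust fit gave 686 to 700 calls on the average in place of 717, of which 651 to 698 were among the 717. With a pseudocount of 0.1 the every-line test called 11 genes lower, the rule of size alone gave 91 higher and 60 lower, and DSM OE was apart in 10. Without a filter the every-line test called 62 genes lower, and WT OE and DSM OE were apart in 7 each. With a mean FPKM of at least 5 the every-line test called 3 lower, the rule of size 8 lower, the F test 1054, KD against the rest 968, KD apart 82 and DSM OE apart 5. DSM OE was apart in 1 with median scaling and in 4 with a robust fit. A fit of 2 groups, which counts the differences between altered lines as noise, called 15 higher and 29 lower.

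The replicate numbers do not pair the samples: the deviations of same-numbered libraries correlated at -0.061 to 0.043 between lines. With the replicate block the average gave 122 higher and 118 lower, the every-line test 2 higher and 9 lower, the F test 878, KD against the rest 1019, WT OE 114 and DSM OE 490, with KD apart in 70 and DSM OE in 1. The block leaves fewer degrees of freedom.

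Without the WT OE line the average gave 242 higher and 241 lower, without DSM OE 138 and 140, and without KD 320 and 314. The mean difference of *DAXX* turned to -0.26 without WT OE.

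With 1 library left out in turn, the average gave 114 to 208 genes higher and 59 to 228 lower, the every-line test 0 to 17 higher and 5 to 12 lower, and the rule of size 28 to 111 higher and 30 to 55 lower. The F test gave 402 to 1229. KD against the rest gave 375 to 1266 and was apart in 53 to 80, WT OE 103 to 227 and apart in 0 to 21, and DSM OE 196 to 786 and apart in 1 to 10. Of the 24 genes first named, 20 kept the call on the average in each of the 8 cases; of all 71 named and called, 44 lost it in at least 1. Fewer libraries leave fewer degrees of freedom.

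Depth limits the genes listed near 0. FPKM holds no read counts, so a value of 0 has no floor, and how many reads separate it from the control values is unknown. With 2 control libraries shared by all 3 differences, a deviation of the control line enters every one of them.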
